A study of Homo sapiens with 12 samples.

Results

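A block of 164 genes on human chromosome 12 was followed across 4 lines of KMS11, a human myeloma cell line in which the translocation t(4;14) drives overexpression of the histone methyltransferase MMSET (also named NSD2). The genes were those starting between 7.1 and 49 Mb (segment 1) or between 76 and 105 Mb (segment 2) of chromosome 12 (GRCh38). A gene entered if a probe assigned to it alone had a detection p-value under 0.05, that is, lay above the negative control beads, on all 3 arrays of at least 1 line. The 6 genes GPRC5D, CDKN1B, SLC38A1, SLC38A2, DUSP6 and HSP90B1 were left out. This gave 211 probes for 164 genes (104 in segment 1, 60 in segment 2) out of 15596 detected probes and 9857 genes, where the segments held 521 probes for 361 genes before the detection filter. The segment limits had been chosen from the measured difference between NTKO and TKO cells, with the WT values in view, so differences between MMSET-high and MMSET-low lines are given as a description of what selected the genes.

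Each line was measured on 3 Illumina HumanWG-6 v3 expression arrays, 12 in total, from total RNA. WT is the parental culture, which holds both the wild-type and the rearranged, overexpressed MMSET allele. NTKO cells lack an active wild-type allele but keep the rearranged one, and in TKO1 and TKO2, which are 2 clones, the rearranged allele was inactivated by homologous recombination and the wild-type one was kept, so that WT and NTKO are MMSET-high and both TKO clones MMSET-low. All 4 lines share the KMS11 background and and RPMI medium, and the labels name no other change or treatment. The labels do not say that the 3 replicates of a line were separate cultures, so p-values measure the spread between arrays, and a line that is 1 clone cannot be told apart from what that clone happens to carry. In bulk RNA, fewer cells of a kind and less RNA per cell cannot be told apart either.

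MMSET places dimethyl groups on lysine 36 of histone H3, a mark found over active genes, which opposes the repressive trimethylation of lysine 27 placed by EZH2. In t(4;14) myeloma the excess enzyme raises this mark across the genome. Genes that sit side by side on a chromosome usually share no function, and the genes of these segments range from glycolytic enzymes and vesicle proteins to cytokine regulators and transcription factors.

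The arrays ranged from 181 to 300 in mean intensity and detected 8832 to 9638 genes each. The NSD2 probe averaged 6.36 in WT, 6.27 in NTKO, 5.79 in TKO1 and 5.56 in TKO2 on the log2 intensity scale, and its lowest MMSET-high array (6.09) lay just above its highest TKO array (6.07). NTKO replicate 2 stood apart from the other NTKO arrays, with a correlation of 0.941 and 0.944 across genes against 0.994 between the remaining pair. The NTKO medians of the segments and the total counts of called members are also given without this array. Differences of single genes are given with it only. Of 8 plasma cell markers, IRF4, MZB1, PRDM1, SDC1, TNFRSF17 and XBP1 were detected on all 12 arrays, and SLAMF7 did not pass the detection filter. Of the T cell and myeloid markers, 0 of 3 and 0 of 2 passed that filter. The stromal marker VIM and the erythroid marker HBB were detected on all 12 arrays. The plasma cell marker CD38 and the B cell marker MS4A1 were detected on 6 arrays each, the stromal PDGFRB on 9 and the epithelial KRT18 on 3. The part of these markers in any result was not tested.

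Genes of both segments were more highly expressed in both MMSET-high lines than in both TKO clones, with medians of the same size. The median gene of segment 1 was 0.41 higher on the log2 scale in NTKO than in the mean of the TKO clones, a 1.33-fold difference, with quartiles of 0.05 and 0.68. The median gene of segment 2 was 0.41 higher in the same comparison, with quartiles of 0.01 and 0.70. For WT minus TKO the medians were 0.33 and 0.43. Over all 9857 genes the median was -0.04 in both comparisons. With no filter on dim probes, so that all 361 genes of the segments entered, the NTKO medians were 0.035 and 0.030 and the WT medians 0.051 and 0.083. Median centring in place of quantile normalisation gave WT medians of 0.51 and 0.65 and moved the median of all genes to 0.17.

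The counts only describe the choice, and nothing is read from them. The same holds for the counts of functional lists given further on, since the members were chosen as higher: 45.1% of all members were called higher in NTKO minus TKO and 37.2% in WT minus TKO. In NTKO minus TKO, 46 of the 104 genes of segment 1 were called higher and 8 lower at an adjusted p under 0.05, and in segment 2 it was 28 higher and 1 lower of 60, where 15.2% of all tested genes were called higher and 13.8% lower. In WT minus TKO, 38 genes of segment 1 were higher and 4 lower, and 23 genes of segment 2 were higher and 1 lower, where 10.8% of all genes were called higher and 6.3% lower. Leaving out NTKO replicate 2 moved the 2 NTKO medians to 0.46 and 0.41. It raised the member genes called higher in NTKO minus TKO from 74 to 89 and those called lower from 9 to 19. Because a member could pass the detection filter through the MMSET-high lines alone, members detected on all 12 arrays were also taken by themselves. These were 117 genes, with NTKO medians of 0.38 and 0.42 and WT medians of 0.32 and 0.47 in segments 1 and 2.

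**Figure D1:**
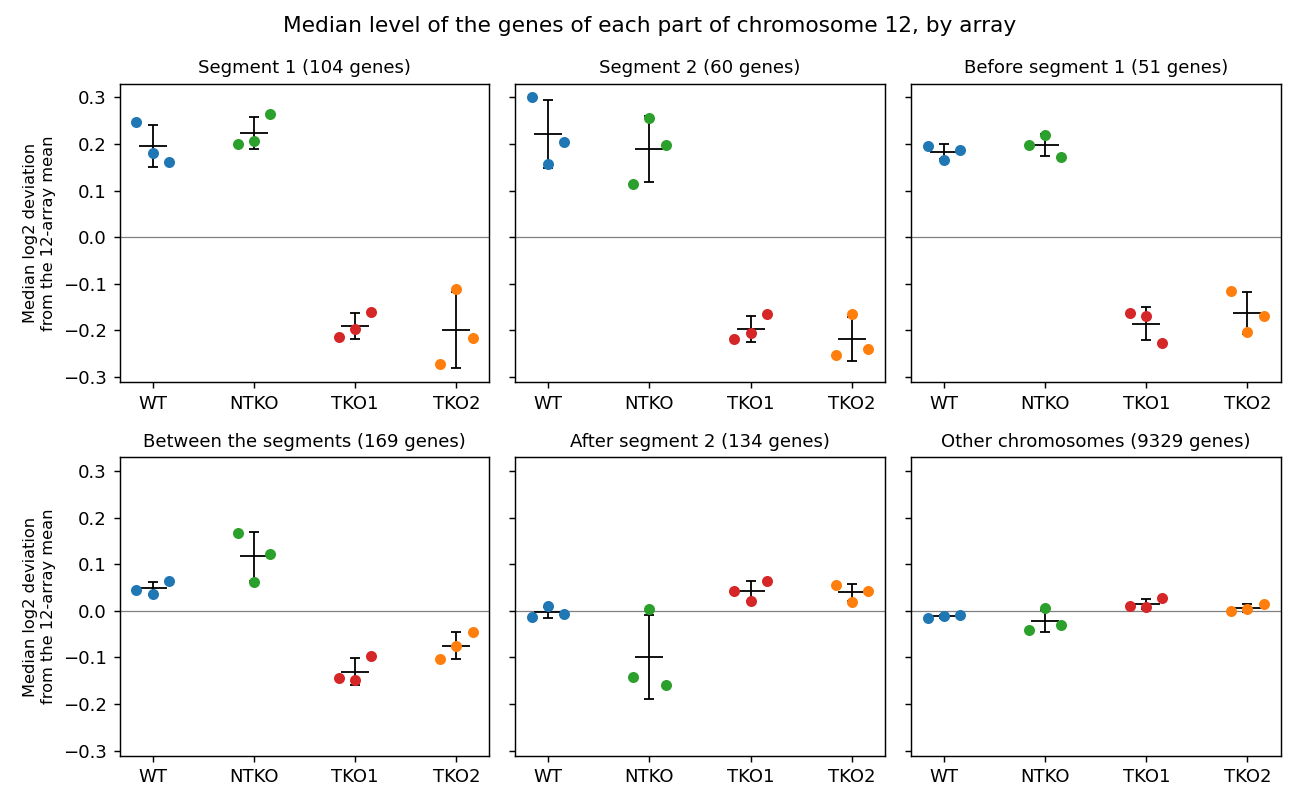
Median log2 deviation of the genes of each chromosome part from their own 12-array means, by array, with each point 1 array and bars the mean and SD of 3 arrays of a line. In both segments the 6 WT and NTKO arrays sit above 0.11 and the 6 TKO arrays at or below -0.11, while genes of other chromosomes stay between -0.04 and 0.03.

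Every array showed the separation. The median deviation of segment 1 from the 12-array mean of each gene was 0.25, 0.18 and 0.16 on the WT arrays and 0.20, 0.21 and 0.26 on the NTKO arrays. On the TKO1 arrays it was -0.22, -0.20 and -0.16, and on the TKO2 arrays -0.27, -0.11 and -0.22. The 6 MMSET-high arrays did not overlap the 6 TKO arrays, and within each side the lines overlapped. For segment 2 the values were 0.30, 0.16 and 0.20 in WT and 0.12, 0.26 and 0.20 in NTKO, against -0.22, -0.21 and -0.17 in TKO1 and -0.25, -0.17 and -0.24 in TKO2. These again did not overlap. The 2 sides were also apart in the rest of chromosome 12. Before segment 1 the lowest MMSET-high array was at 0.165 and the highest TKO array at -0.11, and between the segments 0.04 and -0.05. After segment 2 the order was reversed, with the highest MMSET-high array at 0.0095 and the lowest TKO array at 0.0193. NTKO replicate 2, which differed from its line across the genome, lay within the MMSET-high range in both segments.

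The segments were compared with each other array by array. Segment 2 minus segment 1 ran from -0.09 to 0.05 over the 12 arrays, with values of both signs among WT, NTKO and TKO2 arrays and only small negative ones in TKO1. The SD of a line's segment median over 3 arrays was 0.03 to 0.08, so the 2 segments differed from each other by about as much as arrays of 1 line did. They also spread their genes alike, with 64.4% of segment 1 genes (67) and 58.3% of segment 2 genes (35) higher in each of the 4 pairs of an MMSET-high and a TKO line, where this held for 23.9% of all genes. In the other direction 9 genes of segment 1 (8.65%) and 2 of segment 2 (3.33%) were lower in all 4 pairs, against 29.5% of all genes.

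**Figure D2:**
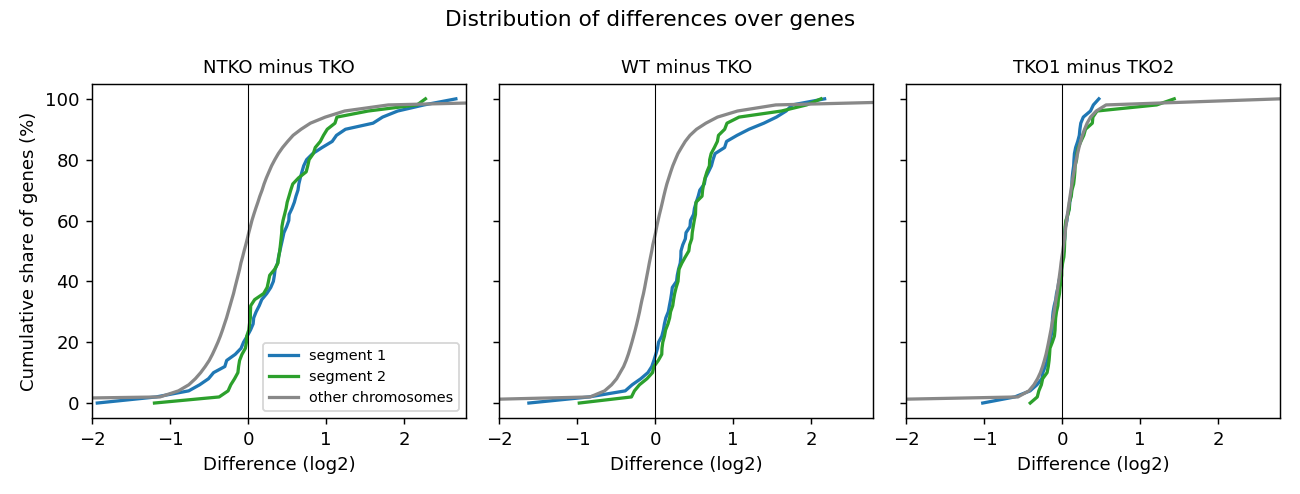
Cumulative share of genes (y, percent) against the difference between lines (x, log2) for segment 1, segment 2 and genes of other chromosomes, in 3 comparisons. Both segment curves run to the right of the other chromosomes in NTKO minus TKO and in WT minus TKO, by a median of 0.33 to 0.43 against -0.04 for all genes, and lie on them in TKO1 minus TKO2.

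Genes were also split into 3 classes of like size over all genes by their mean level. In segment 1 the median NTKO minus TKO was 0.40, 0.44 and 0.40 in the low, middle and high class, and the median WT minus TKO was 0.30, 0.34 and 0.44. In segment 2 the same classes gave 0.24, 0.39 and 0.47 for NTKO and 0.19, 0.49 and 0.52 for WT. The WT medians were higher in the high class than in the low class in both segments. Some members had groups that did not overlap at all, with every one of the 6 MMSET-high arrays above all 6 TKO arrays. They numbered 30 in segment 1 and 18 in segment 2 (28.8% and 30%), against 8.13% of all genes. Among the genes before segment 1 the share was 25.5%. In the opposite direction 4 genes of segment 1 and 0 of segment 2 did not overlap, where 4.69% of all genes did.

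Several of the strongest members were at or near background in TKO cells. The promoters of 133 members were in the RefSeq set used here (GRCh38.p14, 250 bases before to 50 after the start), and 4 are printed because the values below turn on their genes. YBX3 and AMDHD1 lie high in both MMSET-high lines, whereas BHLHE41 and KITLG differ between the TKO clones. Capitals mark CG dinucleotides, the sites of DNA methylation.
YBX3: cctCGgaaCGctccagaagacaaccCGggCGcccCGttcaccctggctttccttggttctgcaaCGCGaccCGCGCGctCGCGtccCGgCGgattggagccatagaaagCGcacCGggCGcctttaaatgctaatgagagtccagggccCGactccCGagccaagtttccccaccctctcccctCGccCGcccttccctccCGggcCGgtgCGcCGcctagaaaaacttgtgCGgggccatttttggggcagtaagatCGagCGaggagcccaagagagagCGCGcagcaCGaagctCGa
AMDHD1: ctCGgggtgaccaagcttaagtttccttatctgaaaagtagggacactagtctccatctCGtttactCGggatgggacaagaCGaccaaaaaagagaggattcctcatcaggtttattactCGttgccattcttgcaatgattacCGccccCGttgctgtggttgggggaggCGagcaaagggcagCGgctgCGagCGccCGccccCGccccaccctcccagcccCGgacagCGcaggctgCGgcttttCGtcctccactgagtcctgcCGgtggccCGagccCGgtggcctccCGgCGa
BHLHE41: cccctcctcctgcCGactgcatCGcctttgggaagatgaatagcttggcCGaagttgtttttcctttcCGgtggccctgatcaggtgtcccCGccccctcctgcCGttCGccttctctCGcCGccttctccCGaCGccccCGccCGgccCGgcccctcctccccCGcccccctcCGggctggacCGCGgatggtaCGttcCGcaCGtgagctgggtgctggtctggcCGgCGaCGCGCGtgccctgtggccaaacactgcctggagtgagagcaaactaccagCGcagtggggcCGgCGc
KITLG: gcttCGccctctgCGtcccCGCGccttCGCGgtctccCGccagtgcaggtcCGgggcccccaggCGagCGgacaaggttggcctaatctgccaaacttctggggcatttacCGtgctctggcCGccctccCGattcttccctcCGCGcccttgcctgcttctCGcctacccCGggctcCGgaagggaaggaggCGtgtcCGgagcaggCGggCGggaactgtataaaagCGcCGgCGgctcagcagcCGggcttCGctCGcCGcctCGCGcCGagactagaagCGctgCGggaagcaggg
The YBX3 promoter (chr12:10723274-10723573, minus strand) holds 32 CG dinucleotides, and that of AMDHD1 (chr12:95943081-95943380, plus strand) holds 22. The BHLHE41 promoter (chr12:26124988-26125287, minus strand) holds 29 and the KITLG promoter (chr12:88580422-88580721, minus strand) 34, and of these promoters KITLG alone has the letters TATAAA, searched on both strands. The median over segment 2 was 24 CG dinucleotides and 63.3% G and C, with 91.7% of its genes matched, and over all 8161 matched genes 26 and 65.3%. TATAAA was in 5.45% of the matched segment 2 promoters and 5.56% of all. In segment 1 only 75% of genes had a promoter in the set, which is too few for a comparison of its promoters.

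Among receptors, channels and signalling proteins, PRICKLE1 and CACNB3 had the widest NTKO minus TKO differences of segment 1. PRICKLE1 (chr12:42456757-42589746), a planar cell polarity protein, measured 6.61, 7.16 and 7.12 on the WT arrays and 7.55, 8.03 and 8.22 on the NTKO arrays. It measured 5.20, 5.49 and 5.07 in TKO1 and 5.49, 4.90 and 5.49 in TKO2. All MMSET-high arrays lay above all TKO arrays, and every NTKO array above every WT array. The difference was 2.67 ± 0.21 for NTKO minus TKO and 1.69 ± 0.21 for WT minus TKO (log2, SE of the fit). On TKO1 replicate 3 and TKO2 replicate 2 PRICKLE1 lay below the lowest detected intensity of the array, 5.12 and 5.26. CACNB3 (chr12:48814480-48828941), a cytoplasmic beta subunit of voltage-gated calcium channels, measured 7.32, 7.49 and 7.55 in WT and 8.75, 8.25 and 8.58 in NTKO. In TKO1 it measured 5.91, 5.66 and 6.28, and in TKO2 6.05, 5.96 and 6.21. Its groups were ordered NTKO, then WT, then the TKO clones together, with no overlap between those 3 levels, and the difference from TKO was 2.52 ± 0.17 in NTKO and 1.44 ± 0.17 in WT.

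In segment 2 the cytokine regulator SOCS2 (chr12:93569969-93626236), an inhibitor of JAK-STAT signalling, measured 8.94, 9.01 and 8.95 in WT and 9.56, 9.01 and 9.61 in NTKO. In TKO1 it measured 7.41, 6.80 and 7.20 and in TKO2 7.03, 7.27 and 7.01, so that the sides were far apart. The differences were 2.27 ± 0.17 and 1.85 ± 0.17. SLC6A15 (chr12:84859491-84912799), a transporter of neutral amino acids, measured 6.99 to 7.25 in WT and 6.85 to 6.95 in NTKO against 4.97 to 5.31 in TKO1 and 4.83 to 5.68 in TKO2. Its probe was detected on 3 of the 6 TKO arrays, and it gave differences of 1.75 ± 0.19 and 1.96 ± 0.19. ARHGDIB (chr12:14942015-14961601) had the widest WT difference of segment 1, at 2.17 ± 0.15, with 1.24 ± 0.15 for NTKO. It measured 10.60, 10.39 and 10.46 in WT, 9.72, 9.45 and 9.46 in NTKO, 8.53, 8.70 and 8.10 in TKO1 and 8.38, 8.24 and 7.91 in TKO2, so every WT array lay above every NTKO array and these above both clones.

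The RAS, MAP kinase and immune signalling list held 12 members, of which 5 were called higher and 2 lower in NTKO minus TKO and 6 higher and 2 lower in WT minus TKO, with medians of 0.23 and 0.32. Over all genes 15.2% were called higher and 13.8% lower in NTKO minus TKO, and 10.8% and 6.3% in WT minus TKO. The 2 lower genes were RERG and KITLG. UBE2N, a ubiquitin-conjugating enzyme of immune signalling, was 0.67 ± 0.17 higher in WT than in TKO and 0.01 ± 0.17 higher in NTKO. STRAP was 0.64 ± 0.18 higher in WT and 0.07 ± 0.18 higher in NTKO.

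**Figure D3:**
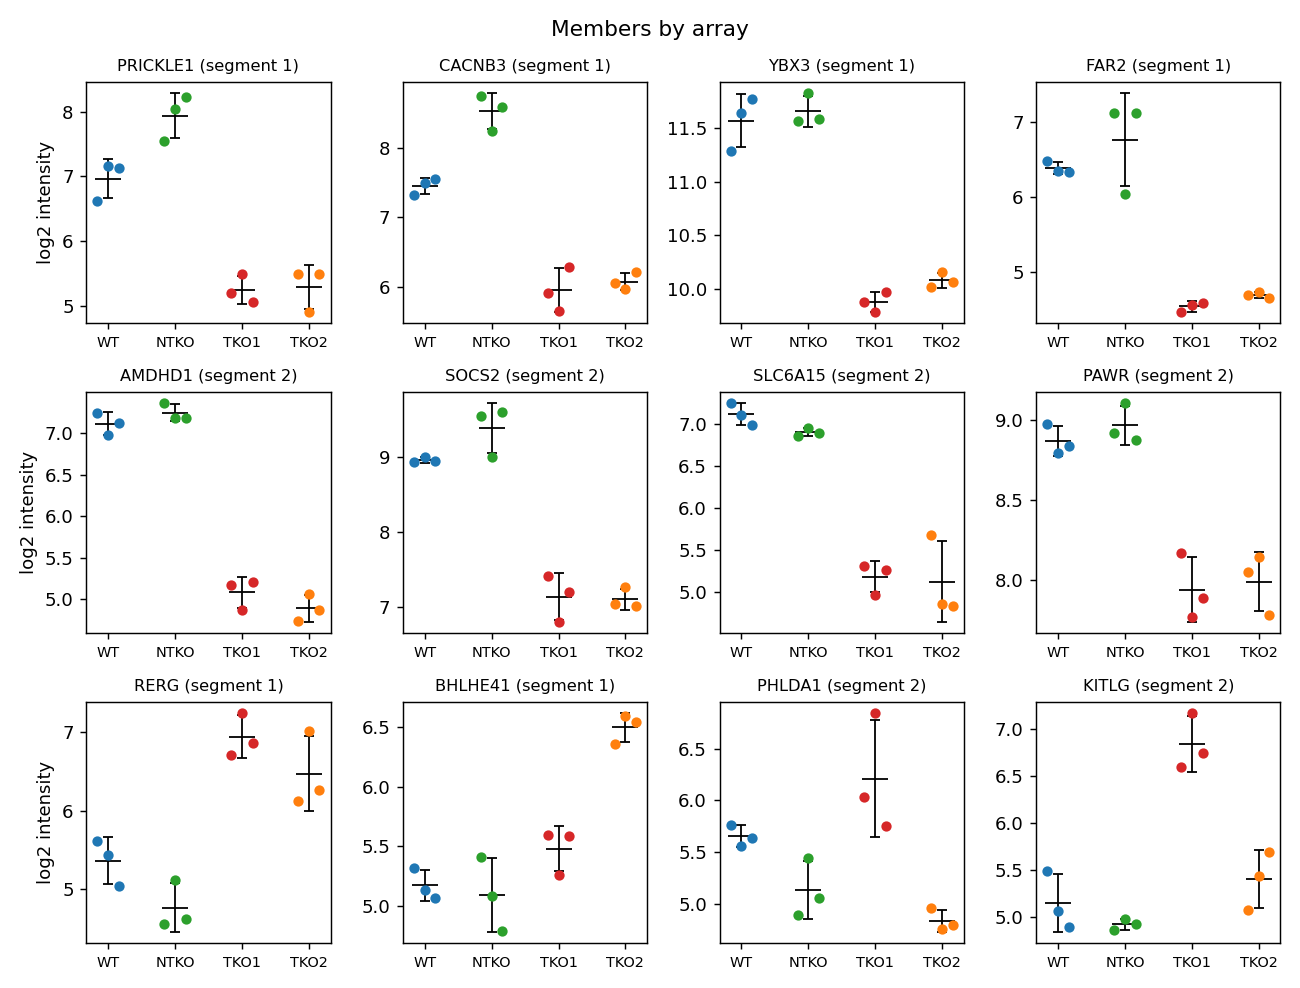
Log2 intensity (y) of 12 member genes in the 4 lines (x), with each point 1 array and bars the mean and SD of 3 arrays. PRICKLE1 to PAWR lie higher in WT and NTKO than in both TKO clones, RERG lies lower, and BHLHE41, PHLDA1 and KITLG differ between TKO1 and TKO2.

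Of the enzymes and mitochondrial proteins, 13 of 20 were called higher in NTKO minus TKO (45.1% of all members and 15.2% of all genes) and 11 of 20 in WT minus TKO (37.2% and 10.8%), with 0 called lower in either. Its medians were 0.46 and 0.47, and 18 of the 20 were higher in all 4 pairs of lines. AMDHD1 (chr12:95943331-95968720), an enzyme of histidine breakdown, measured 7.25, 6.98 and 7.12 in WT and 7.36, 7.19 and 7.19 in NTKO. It measured 5.17, 4.87 and 5.21 in TKO1 and 4.74, 5.07 and 4.87 in TKO2, where only 2 of 6 arrays detected it. WT and NTKO arrays overlapped each other and lay far above every TKO array, with differences of 2.26 ± 0.16 and 2.13 ± 0.16. LDHB (chr12:21635342-21657842), a subunit of lactate dehydrogenase, was among the brightest members, at 12.61, 12.58 and 12.71 in WT and 12.55, 12.50 and 12.62 in NTKO against 11.93, 11.67 and 11.86 in TKO1 and 11.69, 12.10 and 11.88 in TKO2. Its differences were 0.70 ± 0.11 and 0.78 ± 0.11. The glycolytic enzyme PFKM had a close difference in NTKO minus TKO, 0.64 ± 0.13, and a smaller one in WT minus TKO, 0.45 ± 0.13. SLC25A3, the mitochondrial phosphate carrier, was 0.42 ± 0.11 higher in NTKO than in TKO and 0.31 ± 0.11 higher in WT, but its other probes went down to -0.12 in NTKO minus TKO. The complex I subunit NDUFA12 was 0.42 ± 0.14 and 0.44 ± 0.14 higher, and the methionine aminopeptidase METAP2 0.44 ± 0.14 and 0.61 ± 0.14. TXNRD1, thioredoxin reductase, differed by 0.19 ± 0.12 and 0.18 ± 0.12, and DNM1L, the dynamin that divides mitochondria, by -0.29 ± 0.26 and 0.20 ± 0.26.

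Of the membrane traffic and cytoskeleton genes, 10 of 21 were called higher and 0 lower in each comparison, with medians of 0.43 and 0.52. Of all members 45.1% were called higher in NTKO minus TKO and 37.2% in WT minus TKO, and of all genes 15.2% and 10.8%. PPP1R12A, the targeting subunit of myosin phosphatase, was 0.76 ± 0.15 higher in NTKO and 0.96 ± 0.15 higher in WT than in TKO. ACTR6, an actin-related protein of the nucleus, was 0.85 ± 0.13 and 0.74 ± 0.13 higher, and both genes had every MMSET-high array above every TKO array. M6PR, a mannose 6-phosphate receptor that carries lysosomal enzymes, measured 9.22 to 9.88 in the MMSET-high lines and 9.06 to 9.25 in TKO, so its groups overlapped. WASHC3, a subunit of the endosomal WASH complex, was 1.11 ± 0.24 higher in NTKO and 0.52 ± 0.24 higher in WT. IPO8, a nuclear import receptor, differed by 0.34 ± 0.18 and 0.36 ± 0.18 with overlapping arrays.

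Of 16 apoptosis and cell cycle genes, 14 lay in segment 2, and 8 were called higher in NTKO minus TKO and 6 in WT minus TKO, with 0 lower, near the shares of all members (45.1% and 37.2%) where 15.2% and 10.8% of all genes were called higher. PAWR (chr12:79584879-79690964), a pro-apoptotic protein, measured 8.98, 8.80 and 8.84 in WT and 8.92, 9.11 and 8.88 in NTKO. It measured 8.17, 7.77 and 7.88 in TKO1 and 8.05, 8.14 and 7.78 in TKO2, again without overlap, with differences of 1.00 ± 0.14 and 0.91 ± 0.14. APAF1, the scaffold of the apoptosome, was 1.11 ± 0.28 higher in NTKO and 0.77 ± 0.28 higher in WT, but NTKO replicate 2 (7.09) lay within the TKO range of 6.83 to 7.10 while replicates 1 and 3 were at 8.64 and 8.51. The nucleoporin NUP37 was 0.87 ± 0.12 and 0.52 ± 0.12 higher. GAS2L3, a cytoskeletal linker, was 1.17 ± 0.25 and 0.81 ± 0.25 higher with 2 of 6 TKO arrays detected. NAP1L1, a histone chaperone, differed by -0.04 ± 0.14 in NTKO and 0.34 ± 0.14 in WT, and the antiproliferative gene BTG1 by 0.52 ± 0.31 and -0.02 ± 0.31, with NTKO values of 11.55, 9.78 and 11.69.

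Of 16 chromatin and transcription members, 3 were called higher and 1 lower in both NTKO minus TKO and WT minus TKO, near the 15.2% and 10.8% of all genes called higher, with medians of 0.19 and 0.28. SINHCAF, a subunit of the SIN3-HDAC complex, was the strongest, at 11.33, 11.19 and 11.50 in WT and 11.88, 11.44 and 11.77 in NTKO against 10.54, 10.29 and 10.89 in TKO1 and 10.44, 10.56 and 10.76 in TKO2. It did not overlap, and differed by 1.12 ± 0.15 and 0.76 ± 0.15. PHC1, a Polycomb repressive complex 1 subunit, was 0.64 ± 0.14 and 0.33 ± 0.14 higher. The remodelling subunit ARID2 (-0.08 ± 0.16 and 0.18 ± 0.16), the vitamin D receptor VDR (-0.07 ± 0.17 and 0.17 ± 0.17), the repressor ETV6 (0.13 ± 0.15 and 0.39 ± 0.15) and the DNA glycosylase TDG (-0.12 ± 0.23 and 0.47 ± 0.23) had arrays of the 2 sides that overlapped. The C-type lectin and NK complex at the start of segment 1 had 26 listed genes, of which 2 were members. KLRG1, an inhibitory lectin receptor, was 1.07 ± 0.16 higher in WT and 0.56 ± 0.16 in NTKO, while CLEC2D differed by 0.10 ± 0.25 and 0.01 ± 0.25.

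Other members with large differences belonged to none of these lists. YBX3 (chr12:10699089-10723323), a cold-shock domain protein that binds RNA, measured 11.29, 11.64 and 11.77 in WT and 11.56, 11.82 and 11.58 in NTKO. It measured 9.88, 9.79 and 9.98 in TKO1 and 10.02, 10.16 and 10.07 in TKO2. No array crossed, and the differences of 1.67 ± 0.13 and 1.58 ± 0.13 were nearly equal in NTKO and WT. The heme-binding protein HEBP1 (chr12:12974870-13000265) measured 7.73 to 8.46 in WT and 8.06 to 9.05 in NTKO against 5.87 to 6.76 in the TKO clones, with differences of 2.26 ± 0.24 and 1.68 ± 0.24. FAM234B was 1.93 ± 0.15 and 1.67 ± 0.15 higher, with 1 of 6 TKO arrays detected.

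FAR2 (chr12:29149278-29335616), a fatty acyl-CoA reductase, was detected on all 6 MMSET-high arrays, at 6.48, 6.34 and 6.33 in WT and 7.11, 6.05 and 7.12 in NTKO, and on no TKO array. Its probe was not well above background in TKO, so it was at least 2.78-fold higher in MMSET-high cells, taking for each TKO array the lowest intensity among detected probes. This bound holds for its brightest probe, and its other probe, detected on 5 MMSET-high arrays and no TKO array, gave at least 1.16-fold. Altogether 11 members, 9 in segment 1 and 2 in segment 2, were detected on no TKO array, and 0 were detected on no WT or NTKO array. The same counts over all genes are not given, and the segments were chosen as higher in MMSET-high cells. Nothing is therefore read from these counts. For 9 of the 11 a bound could be given, from 1.02-fold to 2.78-fold. Among these, named after their values were seen, were the adaptor PPFIBP1 (at least 2.13-fold higher by its brightest probe and at least 1.24-fold by the other), the Rab activator DENND5B (at least 1.91-fold), the adhesion protein CNTN1 (at least 1.78-fold) and the adenylyl cyclase ADCY6 (at least 1.72-fold). CNTN1 was detected on 3 WT arrays and 2 NTKO arrays, the others on all 6. Fewer members were detected per array in TKO (129 to 147) than in WT (160 to 163) or NTKO (149 to 155), and over all genes the TKO arrays also detected fewer, 8832 to 9346 against 9585 to 9638 in WT and 9143 to 9511 in NTKO. Members could enter through detection in the MMSET-high lines alone.

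A minority of members lay lower in MMSET-high cells. RERG (chr12:15107783-15221417), a growth inhibitor related to RAS, measured 5.62, 5.43 and 5.04 in WT and 4.55, 5.12 and 4.63 in NTKO against 6.71, 7.24 and 6.86 in TKO1 and 6.13, 7.01 and 6.27 in TKO2. All MMSET-high arrays lay below all TKO arrays, with differences of -1.93 ± 0.22 and -1.34 ± 0.22. On NTKO replicates 1 and 3 RERG lay below the lowest detected intensity of the array, 4.98 and 4.97. The histone variant gene H2AJ measured 8.01 to 8.53 in WT, 7.57 to 7.90 in NTKO and 8.68 to 9.61 in TKO, a difference of -1.43 ± 0.19 and -0.85 ± 0.19. The antisense transcript SLC38A4-AS1 was also separated, at -1.20 ± 0.28 and -1.62 ± 0.28. MYF6 was lower in all 4 pairs of lines by far less, at -0.11 ± 0.21 and -0.19 ± 0.21.

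**Figure D4:**
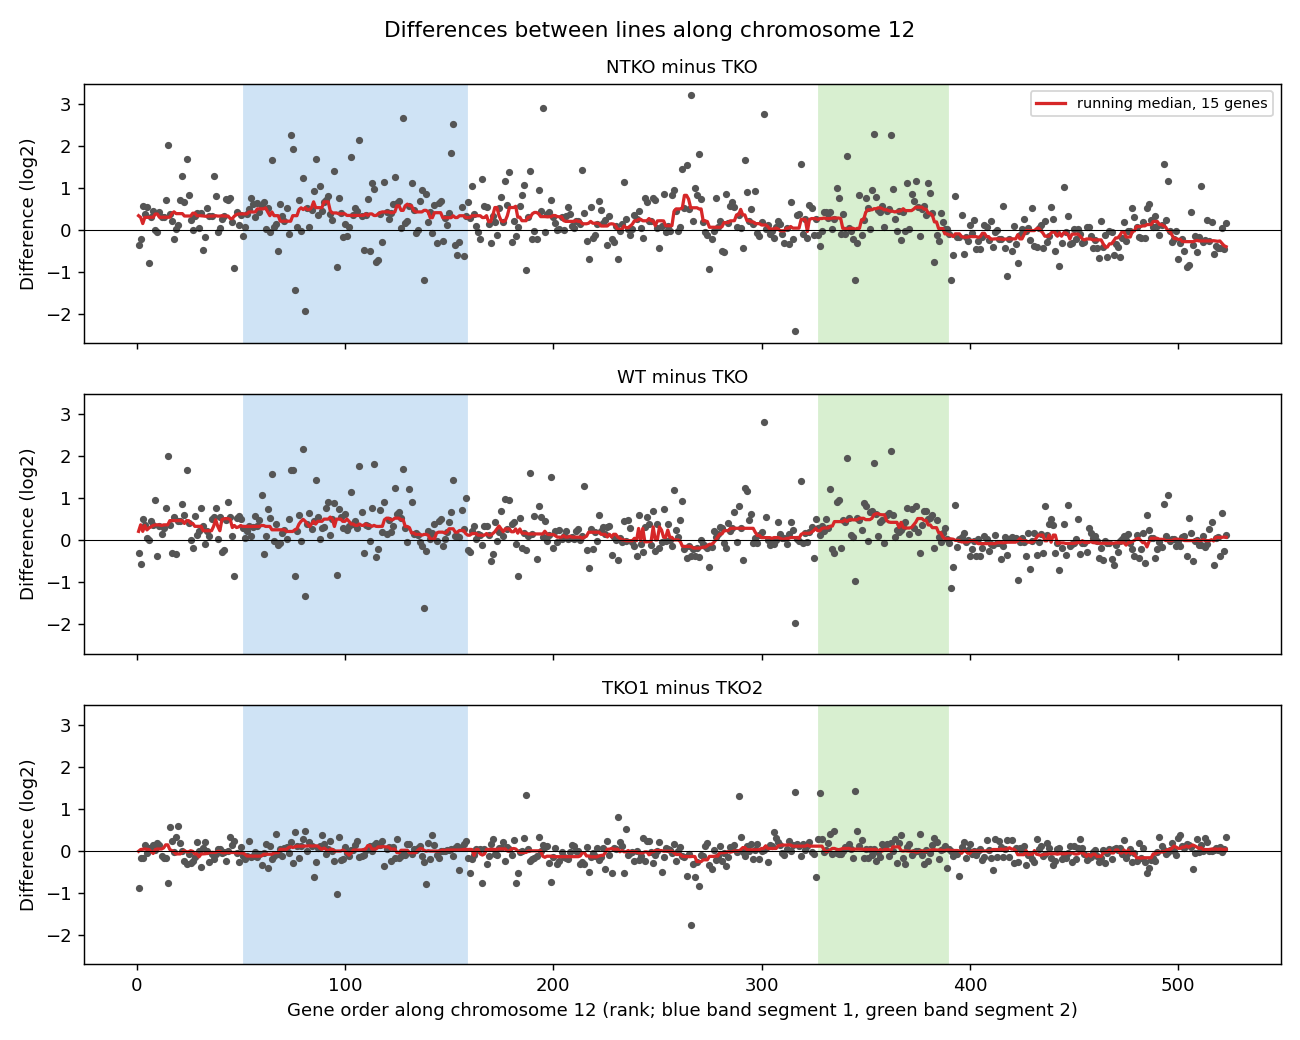
Difference between lines (y, log2) for each gene of chromosome 12 in gene order (x, rank), with each point 1 gene, the red line a running median of 15 genes, and bands marking segment 1 (blue) and segment 2 (green). The running median is above 0 from the chromosome start through segment 1 in NTKO minus TKO and WT minus TKO and reaches 0.54 and 0.63 in segment 2. After segment 2 it runs from -0.41 to 0.20 and from -0.16 to 0.12, and in TKO1 minus TKO2 it runs from -0.13 to 0.12 within the segments and down to -0.26 between them.

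The segments were set beside the rest of the chromosome. The 51 genes before segment 1 had medians of 0.33 in NTKO minus TKO and 0.37 in WT minus TKO, close to those of the segment, so its lower limit at 7.1 Mb does not mark a step. The 169 genes between the segments had 0.21 and 0.11. The 134 genes after segment 2 had -0.16 and -0.03. All MMSET-high arrays lay above all TKO arrays for 13 genes before segment 1 (25.5%), 23 between the segments (13.6%) and 3 after them (2.24%). The share before segment 1 was close to the 28.8% and 30% of the segments. Genes higher in all 4 pairs of lines made up 60.8%, 39.6% and 14.2% of these parts. Cut into stretches of 5 Mb with at least 5 genes, 10 of the 24 stretches of chromosome 12 had a median of at least 0.3 in both comparisons (41.7%), against 1.88% of the 480 stretches on other chromosomes. These 10 lay from 5 to 35, 40 to 45 and 90 to 105 Mb. The segments were chosen on this difference, so these shares describe the choice. Some stretches elsewhere had higher NTKO medians than any on chromosome 12. They lay at 65 to 70 Mb of chromosome 1 (0.76, WT 0.54), 65 to 70 Mb of chromosome 9 (0.76, WT 0.42) and 100 to 105 Mb of X (0.74, WT 0.49).

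Within segment 1 the stretch from 40 to 45 Mb had the highest WT median, at 0.68 (9 genes, NTKO 0.65), and the stretch from 20 to 25 Mb the highest NTKO median, at 0.67 (7 genes, WT 0.33). Within segment 2 the stretch from 90 to 95 Mb had 0.52 and 0.63 (7 genes), while that from 85 to 90 Mb had 0.00 in NTKO and 0.36 in WT (8 genes). At the edges, the first member of segment 1, RBP5, had 0.06 and 0.05, and the nearest tested gene outside, C1R, had -0.15 and 0.30. The last member, DDN, had 0.33 and 1.01, and the next gene, PRKAG1, 0.65 and -0.22. At the start of segment 2 PHLDA1 had -0.39 and 0.13 inside and KRR1 -0.13 and 0.28 outside. At its end NOPCHAP1 had 0.03 and 0.03 inside, and outside WASHC4 had -0.10 and -0.06, APPL2 -1.19 and -1.14 and NUAK1 -0.60 and -0.64.

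NTKO and WT were compared with the caution that NTKO minus WT shares its arrays with the comparison that chose the genes. The medians were -0.01 in both segments. In segment 1, 5 genes were called higher and 2 lower in NTKO, and in segment 2, 0 higher and 1 lower, where 7.79% of all genes were called in either direction. The highest in segment 1 were ADCY6 (1.16), PCED1B (1.13) and CACNB3 (1.08). PCED1B measured 6.59, 6.61 and 6.79 in WT, 8.19, 7.07 and 8.11 in NTKO, 7.04, 5.95 and 6.61 in TKO1 and 7.30, 7.43 and 7.24 in TKO2. WT overlapped TKO1 and lay below every TKO2 array. NTKO replicates 1 and 3 lay above both clones, while replicate 2 lay below every TKO2 array. Against the mean of the clones PCED1B differed by 0.86 in NTKO and by -0.26 in WT. The lowest were ARHGDIB (-0.94), the secreted ligand WNT10B (-0.90) and DENND5B (-0.84). In segment 2 the highest were WASHC3 (0.60), the synaptic vesicle protein SYT1 (0.56) and BTG1 (0.54), and the lowest the LIM protein CSRP2 (-0.78), UBE2N (-0.66) and the plasma membrane calcium pump ATP2B1 (-0.65). In WASHC3, SYT1 and BTG1 the value of NTKO replicate 2 lay well below those of replicates 1 and 3.

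The segment limits were chosen from NTKO minus TKO with the WT values in view, not from the difference between the TKO clones. The detection filter did use the clones' own arrays, so a gene could enter through 1 clone in which it was high. The 3 members called below were not tested when detection on every array was required. The spread in the test was taken over all lines. The comparison of the clones with each other asks whether the 2 clones hold the segments at the same level. The median of TKO1 minus TKO2 was 0.019 in segment 1 and 0.027 in segment 2, against 0.01 over all genes. Of the 164 members, 3 passed at an adjusted p under 0.05 (1.83% of them, limma with Benjamini-Hochberg adjustment over all detected probes), where 0.781% of all genes did. Without NTKO replicate 2 the same 3 members passed and 2.34% of all genes did, so the members' share lay above the background with that array and below it without. At an unadjusted p under 0.05 there were 6 in segment 1 (5.77%) and 2 in segment 2 (3.33%), against 7.55% of all genes. Members detected on no TKO array have no measured clone difference, which leaves 95 genes in segment 1 and 58 in segment 2. Among these the 95% interval of the difference excluded a 2-fold change in either direction for 89 and 56 genes, and a 1.5-fold change for 54 and 35. Detection on 1 TKO array was enough to enter, so some of these values lie near background. The same counts over all genes are not given, so nothing is read from them. The median size of the clone difference among these members was 0.129 and 0.147, against 0.141 over all genes.

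The 3 members that differed between the clones were BHLHE41, PHLDA1 and KITLG. BHLHE41 (chr12:26120030-26125037), a transcriptional repressor of the circadian clock, measured 5.60, 5.26 and 5.58 in TKO1 and 6.36, 6.60 and 6.54 in TKO2, against 5.32, 5.14 and 5.07 in WT and 5.41, 5.08 and 4.79 in NTKO. It was lower on all 3 TKO1 arrays than on any TKO2 array, by -1.02 ± 0.19 (adjusted p = 0.0155, limma). TKO1 overlapped the MMSET-high arrays and TKO2 did not. Without TKO1 replicate 2, TKO2 replicate 2 or TKO2 replicate 3 it no longer passed, with adjusted p from 0.00554 to 0.129 over the 20 alternatives that held it.

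PHLDA1 (chr12:76025447-76031776), a pleckstrin homology domain protein induced by growth factors, measured 6.03, 6.84 and 5.75 in TKO1 and 4.96, 4.76 and 4.80 in TKO2. TKO1 was higher by 1.37 ± 0.24 (adjusted p = 0.00994, limma), and the probe was detected on 3 of the 6 TKO arrays. On the TKO2 arrays PHLDA1 lay below the lowest detected intensity of the array, 5.03, 5.26 and 5.11. The size of this difference is therefore taken against background. WT was at 5.76, 5.55 and 5.64 and overlapped the lowest TKO1 array, while NTKO was at 4.90, 5.44 and 5.05 and overlapped TKO2. The call was lost without TKO2 replicate 2 or TKO2 replicate 3, with adjusted p from 0.00186 to 0.0661 over 20 alternatives. KITLG (chr12:88492793-88580471), the ligand of the KIT receptor, measured 6.59, 7.17 and 6.75 in TKO1 and 5.08, 5.43 and 5.69 in TKO2, against 5.49, 5.06 and 4.89 in WT and 4.86, 4.97 and 4.92 in NTKO. It was higher in TKO1 by 1.44 ± 0.21 (adjusted p = 0.00248, limma) with no overlap, and TKO2 overlapped WT. It passed in all 20 alternatives that held it, at adjusted p from 0.000803 to 0.0227. For these 3 genes, the mean over the clones used in the comparisons with NTKO and WT therefore averages unlike levels.

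Different probes of a gene usually moved alike. Of 35 members with several detected probes, 27 had the same sign in all of them for NTKO minus TKO and 30 for WT minus TKO, and 0 had probes called in opposite directions. CCNT1, a cyclin of transcription elongation, was 0.41 ± 0.12 higher in NTKO by its brightest probe, and another of its probes gave -0.23. Probes of DNM1L gave -0.29 to 0.14 in NTKO minus TKO, those of NAP1L1 -0.04 to 0.18 and those of TDG -0.12 to 0.02. In WT minus TKO the probes of DNM1L had the same sign, as did those of NAP1L1 and of TDG.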

How the data were processed

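Total RNA of 12 arrays had been measured on Illumina BeadChips. The authors deposited a scanner export in which each of 48803 probes has 1 intensity and 1 detection p-value per array, the background already subtracted, and a second deposited table of processed intensity values, used as an alternative. Background correction, quantile normalisation and the log2 step used neqc (limma 3.58.1, R 4.3.3, offset 16). Probes were named through the platform annotation and RefSeq (27578 with 1 gene, 27541 of them found, 13 with several, 21212 with none), and positions are those of RefSeq genes. Each gene was represented by its detected probe with the highest mean. All 15596 detected probes entered 1 linear model of the 4 lines (lmFit, eBayes with trend and robust settings), with Benjamini-Hochberg adjustment over all of them and a threshold of 0.05. TKO denotes the mean of both clones. The fit was tested on simulated data.

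The members, the gene lists and the genes named in the text were chosen with earlier results of these data known. Named were, per segment, the 6 genes with the largest smallest difference over the 4 pairs of lines, up to 4 with all pairs lowest, those differing between the clones, the 3 highest and 3 lowest in NTKO minus WT, the genes at each edge, 32 genes by name (24 were members) and the 4 brightest of each list. Of the genes by name LRP6, BCAT1, LRRK2, HDAC7, CHST11 and PLXNC1 did not pass the detection filter. DNA copy number was not analysed here. Precision is limited by having 3 arrays per line.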

Additional observations from a re-analysis of the deposited data

Results flagged for a closer look

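In the test over 15596 probes 3 members differed between the clones TKO1 and TKO2 by the test of that difference itself (limma, 3 arrays against 3). BHLHE41 in segment 1 was lower in TKO1 than in TKO2 by -1.02 on the log2 scale on 3 of 3 arrays. PHLDA1 in segment 2 was higher in TKO1 by 1.37 on 3 of 3 arrays, with every TKO2 array below its lowest detected intensity. KITLG in segment 2 was higher in TKO1 by 1.44 on 3 of 3 arrays.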

How the results depend on the processing

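The alternatives were another background correction, median centring, cyclic loess, the authors' processed values, other detection filters, 1 probe per gene, plain eBayes, a replicate block, leaving out each array, and the methods' t-test. Signs were followed for genes named by rank, by a clone difference or by name. Those named only from a list, at an edge or for a fold bound were not followed. Among the followed genes, none called in NTKO or WT against TKO changed sign, and none of the clone differences did. The t-test gave counts only, so no sign was compared there. The segment medians against TKO stayed above 0 throughout. Median centring moved the WT medians to 0.51 and 0.65 in segments 1 and 2, the NTKO minus WT medians to -0.16 and -0.18 and the TKO1 minus TKO2 median of segment 1 to 0.075, and it moved the median of all genes in WT minus TKO from -0.04 to 0.17. Without model-based background correction and with the authors' values the WT median of segment 2 was 0.36. With no filter on dim probes, where 361 genes entered, the NTKO medians were 0.035 and 0.030 and the WT medians 0.051 and 0.083. With detection on all 12 arrays 39 members were called in WT minus TKO instead of 66, and 0 in each segment between the clones, since BHLHE41, PHLDA1 and KITLG were then not tested. The t-test set the 3 NTKO arrays against the 6 arrays of both TKO clones. At its threshold of 0.002 it called 47 members and 10.4% of all genes. After Benjamini-Hochberg adjustment it called 63 members and 17.3% of all genes, where the main fit called 83 members. The paper describes equal numbers of NTKO and TKO replicates, so its own test was not repeated here. Shares of all genes are not given for the other member counts of this section, so nothing is read from those.

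Leaving out 1 array in turn, the NTKO medians ranged from 0.37 to 0.46 in segment 1 and from 0.37 to 0.41 in segment 2, and the WT medians from 0.32 to 0.39 and from 0.38 to 0.44. NTKO minus WT ranged from -0.046 to 0.0069 and from -0.054 to 0.030, and TKO1 minus TKO2 from -0.041 to 0.038 and from -0.011 to 0.048. Members called in NTKO minus TKO ranged from 64 to 108 and in WT minus TKO from 44 to 89, the highest of each without NTKO replicate 2. Between the clones 0 to 1 gene was called in segment 1 and 1 to 2 in segment 2.

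Deviations from the line means correlated at -0.14 to 0.504 over 18 pairs of arrays with the same replicate number (median 0.0791) and at -0.521 to 0.206 over 36 pairs with different numbers (median -0.0237). Some pairs of the same number deviated together and others did not, and no label ties the numbers to a shared culture or day, so the arrays were not treated as paired. With a replicate block 87 members were called in NTKO minus TKO, 69 in WT minus TKO, and 1 and 2 between the clones.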
